A study of Danio rerio with 4 samples.

Results

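The Notch arterial programme genes were examined in RNA from sorted zebrafish endothelial cells. They are 10 genes listed by name and grouped by role: the receptors notch1a, notch1b, notch2 and notch3, the ligands dll4 and dlc, the targets hey1, hey2 and her4.2, and the modifier mfng. A row of the expression table was taken as a member when its gene symbol equalled a listed name, ignoring case. This gave 8 members among 31951 Ensembl gene rows. The names notch1a and notch1b matched no row, because the symbol table gives 2 rows the shared symbol NOTCH1. Which of those rows is notch1a and which is notch1b was not settled, so both are described under that symbol and counted in no total of members.

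Notch receptors sit in the cell membrane and are cleaved when a Delta or Jagged ligand on a neighbouring cell binds them. The released intracellular part enters the nucleus, joins the DNA-binding protein RBPJ and Mastermind, and switches on genes of the hey and her (hairy/enhancer-of-split) families, which encode transcriptional repressors. In the vessels of vertebrate embryos this pathway is known for arterial identity, for restraining sprouting tip cells and, in the dorsal aorta, for the emergence of blood stem cells.

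The study compared a transgenic line, kdrl:cxcr1, with wild-type, meaning fish without that transgene. Its kdrl promoter is active in endothelium and drives cxcr1, a chemokine receptor gene. Both groups carried kdrl:mcherry, the red reporter used to sort endothelial cells by flow cytometry, and the labels used here give no age or further treatment. Each of 2 independent clutches gave 1 library per genotype, so the comparison rests on 2 kdrl:cxcr1 and 2 wild-type libraries. Levels are FPKM, fragments scaled by transcript length and by library total, so genes can be compared with one another.

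FPKM sums were 986557 to 1280969 per library, and depth is unknown from such values. Genes listed at 0 made up 31.9% of rows in both clutch 1 libraries, against 42% and 43.5% in clutch 2. The row cxcr1 read 12.8 and 0 FPKM in clutches 1 and 2 of kdrl:cxcr1, and 8.14 and 0 in those of wild-type. The row CXCR1 read 0 and 8.21 FPKM against 3.89 and 0 FPKM. Neither row separated the genotypes, and directions are therefore given for the libraries as they are labelled. Endothelial markers were present in each library: kdrl, a VEGF receptor gene, read 140 and 157 FPKM in the kdrl:cxcr1 libraries and 128 and 274 in the wild-type ones.

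All 8 members were measured above 0 in each of the 4 libraries, and all 8 passed the filter of at least 1 FPKM in at least 2 libraries. Mean levels over the 4 libraries ran from 11.5 FPKM for hey2 to 47.7 FPKM for hey1, which placed the members at the 63rd to 91st percentile of the 17723 rows tested. The median tested row averaged 7.54 FPKM. In order of mean level the members were hey1 (47.7 ± 17.5 FPKM, SD, n = 4), notch3 (34.5 ± 5.99), mfng (30.4 ± 13.3), dll4 (26.7 ± 6.57), dlc (23.2 ± 6.56), notch2 (22.7 ± 8.95), her4.2 (12.7 ± 12.9) and hey2 (11.5 ± 3.48). The ranges of each of the 7 neighbouring pairs in this order overlapped. Among all 28 pairs of members 20 overlapped. The other 8 set hey1 above dll4, dlc, notch2, her4.2 and hey2, and hey2 below notch3, mfng and dll4. The top and the bottom of the order were thus both target genes, and the receptors and ligands lay between them.

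**Figure D1:**
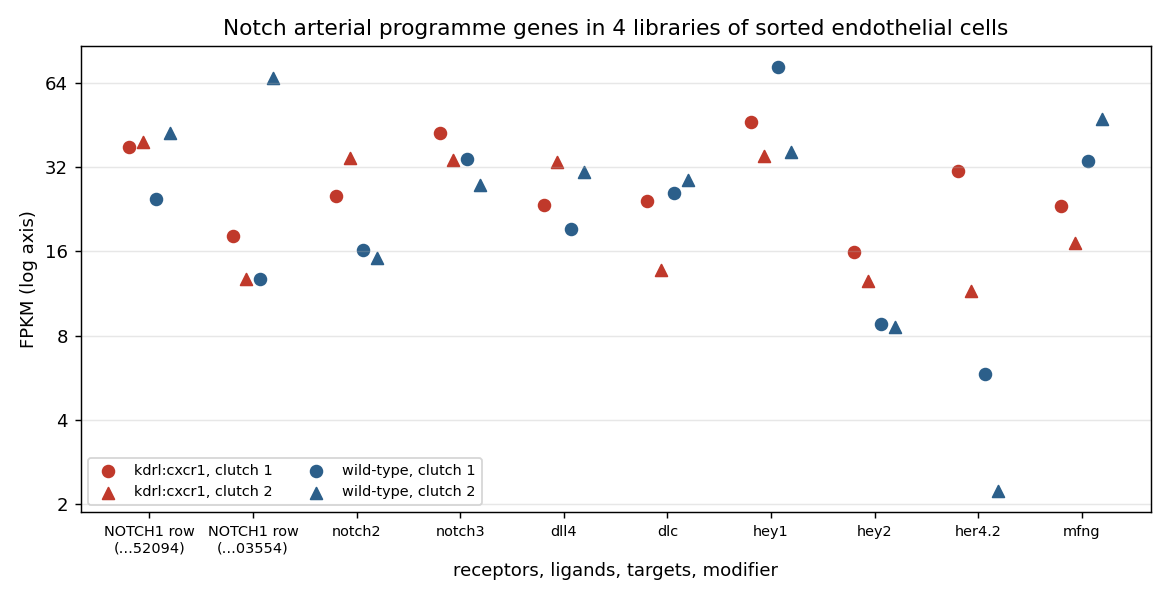
FPKM on a log axis (vertical) for the 8 members and both NOTCH1 rows (horizontal, by role). Red is kdrl:cxcr1, blue is wild-type, circles are clutch 1 and triangles clutch 2, with 1 point per library. The red and blue points of her4.2 are fully separated, at 11.6 FPKM or more and 5.85 FPKM or less, while those of dll4 are interleaved.

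Among the receptors, notch3, a receptor of arterial and mural cells, read 42.3 and 33.9 FPKM in clutches 1 and 2 of kdrl:cxcr1, and 34.2 and 27.7 in those of wild-type. Clutch 1 read above clutch 2 in both genotypes, and the genotypes overlapped. notch2 read 25.2 and 34.4 FPKM in the kdrl:cxcr1 libraries. In wild-type clutch 1 it read 16.2 FPKM, and the wild-type mean was 15.7 ± 0.74 FPKM (SD, n = 2), so both kdrl:cxcr1 libraries lay above both wild-type libraries. Its log2 fold change, on the log2(FPKM + 1) scale used throughout, was 0.86 (SE 0.39) and did not pass the test over all genes (limma adjusted p = 0.699). For notch3 the fold change was 0.29 (SE 0.36, limma adjusted p = 0.873). Within a library, notch3 was 1.68, 2.11 and 1.82 times the level of notch2 in kdrl:cxcr1 clutch 1 and wild-type clutches 1 and 2. In kdrl:cxcr1 clutch 2 the ratio was 0.986, so the receptor order of the other libraries was not found there.

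The first NOTCH1 row (ENSDARG00000052094) read 37.9 and 39.5 FPKM in the kdrl:cxcr1 libraries and 24.6 and 42.5 in the wild-type ones. The kdrl:cxcr1 values lay between the wild-type ones. The second NOTCH1 row (ENSDARG00000103554) read 18.1 and 12.8 FPKM in the kdrl:cxcr1 libraries and 12.8 and 66.8 in the wild-type ones. It was thus set apart by wild-type clutch 2 alone, and its log2 fold change of -0.91 (SE 0.78, limma adjusted p = 0.793) turned to 0.24 without that library. The first row was above the second in 3 of 4 libraries, with ratios of 1.92 to 3.09, and below it in wild-type clutch 2, with a ratio of 0.636. For the first row the fold change was 0.25 (SE 0.40, limma adjusted p = 0.905) and -0.13 without wild-type clutch 1.

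Of the ligands, dll4, the Delta ligand of arterial and tip cells, read 23.4 and 33.5 FPKM in the kdrl:cxcr1 libraries and 19.2 and 30.7 in the wild-type ones. The clutches separated these values and the genotypes did not. dlc, a Delta ligand known from the somites and arteries of zebrafish, read 24.3 and 13.7 FPKM in the kdrl:cxcr1 libraries and 25.9 and 28.7 in the wild-type ones. Both kdrl:cxcr1 libraries lay below both wild-type ones, in clutch 1 by a log2 ratio of only -0.09 and in clutch 2 by -1.01. The log2 fold change of dll4 was 0.20 (SE 0.43, limma adjusted p = 0.939), 0.27 in clutch 1 and 0.12 in clutch 2. After median-of-ratios scaling the dll4 value was -0.03. It was -0.05 without kdrl:cxcr1 clutch 2 and -0.13 without wild-type clutch 1. Those 2 fits held no clutch term, so the clutch difference of dll4 enters them. The log2 fold change of dlc was -0.55 (SE 0.43, limma adjusted p = 0.767). The ratio of dll4 to dlc was 0.965 and 2.45 in kdrl:cxcr1 and 0.741 and 1.07 in wild-type. dll4 was therefore the more abundant ligand in both clutch 2 libraries and the less abundant in both clutch 1 libraries.

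Among the targets, hey1 read 46.4 and 35.2 FPKM in the kdrl:cxcr1 libraries and 72.8 and 36.3 in the wild-type ones. It was the highest member in 3 libraries and stood behind mfng in wild-type clutch 2. hey2, known in zebrafish as gridlock for its part in forming the aorta, read 15.9 and 12.5 FPKM in the kdrl:cxcr1 libraries and 8.84 and 8.6 in the wild-type ones. The hey2 values of the genotypes did not overlap, and those of hey1 did. hey1 was 2.91 and 2.82 times the level of hey2 in kdrl:cxcr1, and 8.24 and 4.22 times in wild-type. That ratio was smaller in both kdrl:cxcr1 libraries than in either wild-type library, with hey1 lower and hey2 higher in kdrl:cxcr1 within each clutch. For hey1 the log2 ratio of the genotypes was -0.64 in clutch 1 and only -0.04 in clutch 2. Neither gene passed the test, at a log2 fold change of -0.34 (SE 0.45, limma adjusted p = 0.880) for hey1 and 0.64 (SE 0.44, limma adjusted p = 0.742) for hey2. Without wild-type clutch 1, in a fit with no clutch term, the value for hey1 was 0.15.

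her4.2, a hairy/enhancer-of-split gene related to mammalian Hes5 and best known as a Notch target of the nervous system, varied the most among the members relative to its mean. It read 31.1 and 11.6 FPKM in the kdrl:cxcr1 libraries and 5.85 and 2.23 in the wild-type ones. Each kdrl:cxcr1 library lay above both wild-type libraries, and in both genotypes clutch 1 lay above clutch 2. The log2 fold change was 2.09 (SE 0.69), 2.23 in clutch 1 and 1.96 in clutch 2, and 1.42 to 2.77 with 1 library left out. It did not pass the test over all genes (limma adjusted p = 0.699, and 0.598 with the clutch as a block).

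The value of her4.2 cannot be read apart from its neighbours. In the RefSeq annotation of the GRCz12tu assembly, her4.1, her4.3, her4.4 and her4.5 follow it in that order, and the interval of her4.1 overlaps that of her4.2. These copies are alike in sequence, and how the authors' pipeline divided reads among them is not given in the sources used here. her4.1 read 26 and 0.197 FPKM in the kdrl:cxcr1 libraries and 30.1 and 4.07 in the wild-type ones. The clutches separated these values, and the genotypes overlapped. Within each clutch her4.1 was lower in kdrl:cxcr1, by log2 ratios of -0.20 in clutch 1 and -2.08 in clutch 2, where her4.2 was higher. her4.4 read 11.6 and 0 FPKM against 1.28 and 0.666 FPKM, and her4.5 read 9 and 0.527 FPKM against 1.31 and 1.83 FPKM. her4.3 read 3.75 and 4.58 FPKM against 0.431 and 1.01 FPKM. Summed over the 5 rows, the level was 81.5 and 16.9 FPKM in the kdrl:cxcr1 libraries and 38.9 and 9.81 in the wild-type ones. The sum was higher in kdrl:cxcr1 within each clutch, but wild-type clutch 1 lay above kdrl:cxcr1 clutch 2, so the summed genotypes overlapped. her4.2 made up 38.2% and 68.6% of the sum in kdrl:cxcr1 and 15% and 22.7% in wild-type. Without her4.2 the sum was 50.4 and 5.3 FPKM against 33.1 and 7.58 FPKM, above wild-type in clutch 1 and below it in clutch 2.

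**Figure D2:**
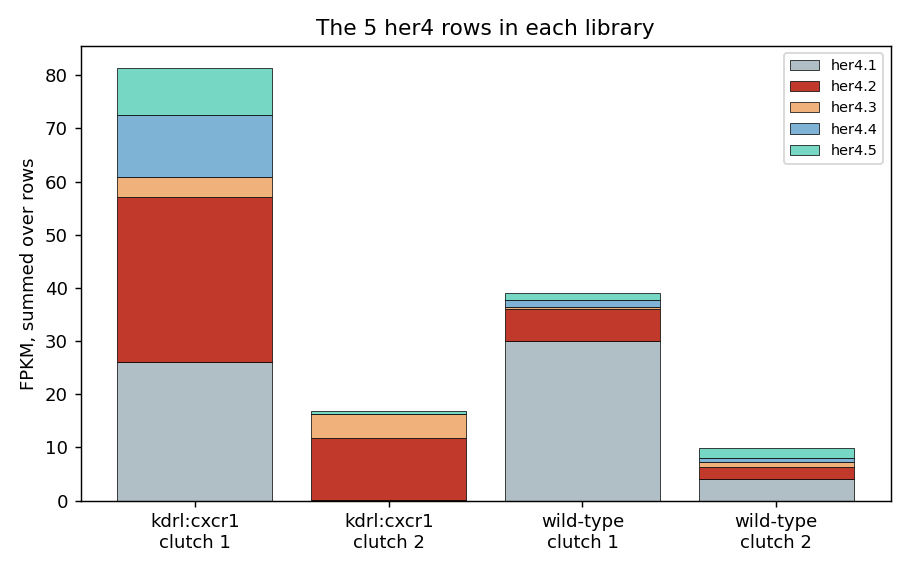
FPKM summed over the 5 her4 rows (vertical) in each of the 4 libraries (horizontal). Colours mark the rows, with her4.2 in red and her4.1 in grey. Both clutch 1 bars (81.5 and 38.9 FPKM) stand above both clutch 2 bars (16.9 and 9.81 FPKM), and within each clutch the kdrl:cxcr1 bar is the taller.

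The modifier mfng encodes Manic fringe, a glycosyltransferase that extends the fucose on Notch receptors and so shifts their response to Delta and Jagged ligands. It read 23.3 and 17.1 FPKM in the kdrl:cxcr1 libraries and 33.7 and 47.4 in the wild-type ones, and the groups did not overlap. The log2 fold change of mfng was -0.97 (SE 0.39; limma adjusted p = 0.699), -0.52 in clutch 1 and -1.42 in clutch 2. In wild-type clutch 2 mfng was the highest of the 8 members.

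Over the whole table the genotype comparison called 2 rows, 0.0113% of those tested, and 0 with the clutch as a block or with any 1 of the 4 libraries left out. Of the 8 members, 0 passed limma's test over all genes, with adjusted p-values of 0.699 to 0.939. At an unadjusted limma p under 0.05 there was 1 member, her4.2, where 6.80% of all tested rows reached that level. With 2 libraries a group, the lowest two-sided p of an exact permutation test is 0.333. The genotype groups did not overlap for 5 members, against 39.6% of tested rows. Of these, notch2, hey2 and her4.2 were higher in kdrl:cxcr1 (26.0% of tested rows) and dlc and mfng lower (13.6%). After scaling to 14 pan-endothelial markers, a check chosen after seeing the data, 4 members did not overlap, against 33.3% of tested rows: notch2, dll4, her4.2 and mfng. All 8 members had the same direction in both clutches, 5 higher and 3 lower, as did 56.9% of tested rows. Their median log2 fold change was 0.24, and that of all tested rows was 0.16. Median-of-ratios scaling moved the latter by -0.18, to -0.03, and the members' median to 0.02. Above the median row, where 50.0% of rows lie by construction, were 5 members: notch2, notch3, dll4, hey2 and her4.2, before and after that scaling. A log2 fold change of at least 1 in size was found for 1 member, her4.2, and for 22.5% of tested rows. Within the ligands and within the targets the members were thus mixed in direction, and the receptor members were not. Both receptor members and dll4 lay above the median row, dlc below it, and hey2 and her4.2 above with hey1 below. For dll4 the margin was small, 0.20 (SE 0.43) against 0.16. After median-of-ratios scaling dll4 and the median row both rounded to -0.03. The first and second NOTCH1 rows, outside the members, were at 0.25 and -0.91.

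**Figure D3:**
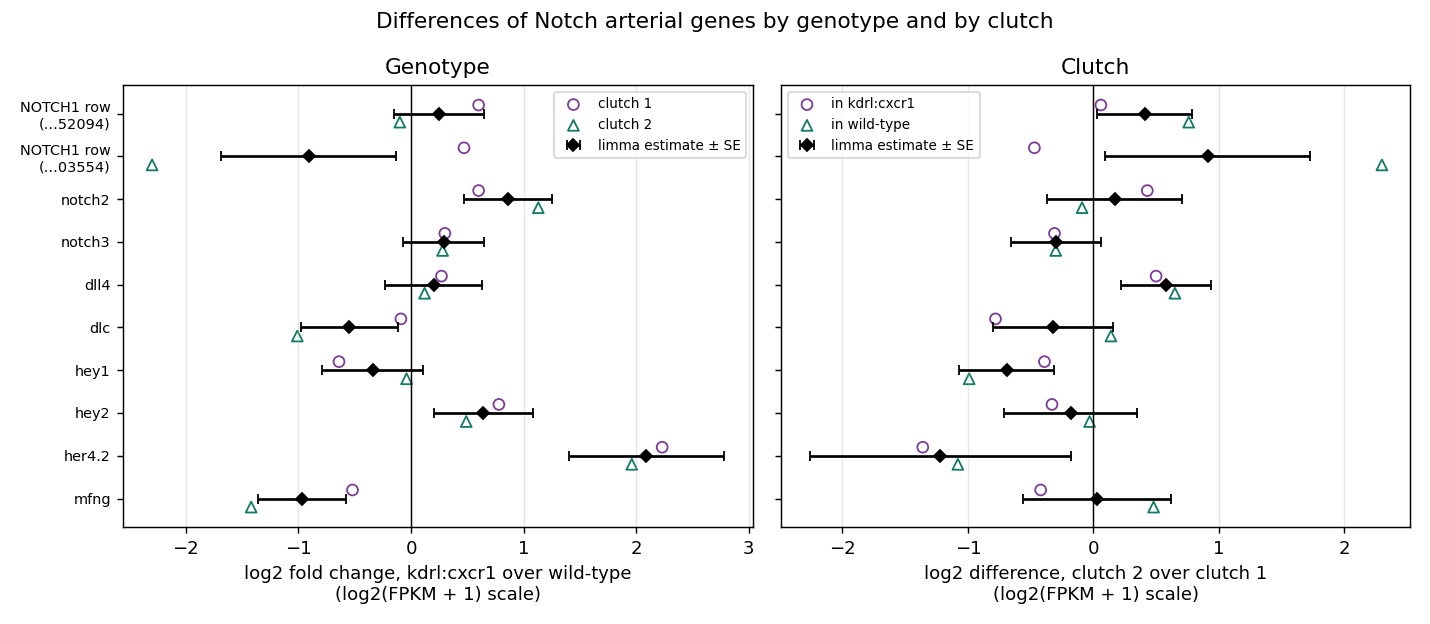
Log2 differences on the log2(FPKM + 1) scale (horizontal) for the 8 members and both NOTCH1 rows (vertical), by genotype (left) and by clutch (right). Black diamonds with bars are limma estimates ± SE, and open symbols are the values within each clutch or genotype. her4.2 has the largest values among the members in both panels, 2.09 by genotype and -1.22 by clutch, and the symbols of the second NOTCH1 row lie on both sides of 0.

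The same libraries were compared by clutch. Here 3 rows passed over the whole table, 0.0169% of those tested, and 0 of the 8 members (limma adjusted p 0.738 to 0.999). At an unadjusted limma p under 0.05 there were also 0 members, against 9.20% of tested rows. The clutches did not overlap for 3 members, against 35.9% of tested rows. dll4 was higher in clutch 2 (32.1 ± 2 FPKM, SD, n = 2, against 21.3 ± 2.96), while hey1 (35.8 ± 0.723 against 59.6 ± 18.7 FPKM) and notch3 (30.8 ± 4.35 against 38.3 ± 5.72 FPKM) were lower. The log2 difference was 0.58 (SE 0.36) for dll4, -0.69 (SE 0.38) for hey1 and -0.30 (SE 0.36) for notch3. A difference of at least 1 in size was found for 1 member, against 21.2% of tested rows. This was her4.2 at -1.22 (SE 1.04, limma adjusted p = 0.899), with 18.5 ± 17.9 FPKM in clutch 1 and 6.89 ± 6.6 in clutch 2. The log2 ratio of clutch 2 over clutch 1 was -1.36 in kdrl:cxcr1 and -1.08 in wild-type. Fits with 1 library left out held no genotype term, so the genotype difference of her4.2 enters them. The clutch difference was -0.10 without kdrl:cxcr1 clutch 1 and -0.24 without wild-type clutch 2, both under 1 in size. Without kdrl:cxcr1 clutch 2 it was -2.2, and without wild-type clutch 1 it was -2.33. For mfng the difference was 0.03, -0.42 in kdrl:cxcr1 and 0.48 in wild-type. Scaled to the pan-endothelial markers, dll4 differed between clutches by 0.07, and all tested rows by a median of -0.50 in place of -0.06.

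Marker levels were set beside these values. By clutch 0 neural and 0 pan-endothelial rows passed limma's test, with 5 and 1 of 13 at an unadjusted p under 0.05. The 13 tested neural rows had a median log2 difference of -1.21 between clutches, 12 of 13 below the median row. Their summed level was 234 and 154 FPKM in clutches 1 and 2 of kdrl:cxcr1, and 260 and 74.1 in those of wild-type. Of the pan-endothelial markers 12 of 13 tested rows lay above the median row, with a median of 0.53. Their summed level was 736 and 799 FPKM in the kdrl:cxcr1 libraries, and 685 and 1204 in the wild-type ones. The part of these cells in the member values was not tested. In bulk RNA, fewer cells of a type and less RNA per cell cannot be told apart. By genotype the neural rows had a median log2 fold change of 0.49, with 8 of 13 above the median row. The clutches disagreed in direction here. The neural sum was lower in kdrl:cxcr1 than in wild-type in clutch 1 (234 against 260 FPKM). In clutch 2 it was higher (154 against 74.1 FPKM).

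Other cells that use these receptors were also checked. Mural and smooth muscle markers summed to 258 and 287 FPKM in the kdrl:cxcr1 libraries and 253 and 277 in the wild-type ones. Of these sums the TAGLN row ENSDARG00000033466 was 132 and 169 FPKM against 120 and 154 FPKM. Of the 7 tested mural rows, 2 were higher in kdrl:cxcr1 without overlap (26.0% of all tested rows) and 2 lower (13.6%). The mural receptor gene PDGFRB was listed at 0 in all 4 libraries, while the other 7 of the 8 mural rows passed the filter. Paraxial mesoderm markers, of cells in which dlc is also used, summed to 14 to 14.9 FPKM in 3 libraries and to 39.6 FPKM in kdrl:cxcr1 clutch 2, of which ripply1 was 35.5 FPKM. mespba and ripply2 were listed at 0 in all 4 libraries. Of the 4 tested rows of this list, 1, ripply1, was higher in kdrl:cxcr1 without overlap (26.0% of all tested rows) and 2 were lower (13.6%). The lower ones were mespaa (0 and 0 FPKM against 1.62 and 4.86 FPKM) and MYOD1 (0.651 and 0.597 FPKM against 2.57 and 2.96 FPKM). Epidermal markers were 768 and 597 FPKM in the kdrl:cxcr1 libraries against 857 and 1085 in the wild-type ones. Erythroid markers summed to 6472 and 1443 FPKM against 3044 and 1614 FPKM, of which the globin gene hbae3 was 6370 and 1348 FPKM against 2999 and 1580 FPKM. The other 6 erythroid rows summed to 102 and 95 FPKM against 44.4 and 33.8 FPKM. Neutrophil and macrophage markers summed to 1240 and 1785 FPKM against 763 and 941 FPKM. The epidermal, erythroid and neutrophil and macrophage lists had 1 of 9, 6 of 7 and 9 of 9 tested rows above the median row by genotype, and their part in the member values was not tested.

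The rest of the pathway was followed through 74 listed genes, of which 54 matched a symbol. These gave 56 rows, 51 of them tested. By genotype 0 passed limma's test in either direction, with 3 at an unadjusted p under 0.05 (6.80% of all tested rows). By clutch 0 passed, with 9 at that level (9.20% of all tested rows). By genotype 18 lay above the median row and 33 below, with a median of -0.02 against 0.16 for all rows, and 9 were higher (26.0% of all tested rows) and 9 lower (13.6%) in kdrl:cxcr1 without overlap. On average 20 rows reached 10 FPKM.

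Among the other ligands, jag2b averaged 14.3 ± 1.66 FPKM (SD, n = 4). The listed name dld, ignoring case, matched a row with the symbol DLD, which averaged 64 ± 16.1 FPKM. Whether that row holds the Delta gene was not settled, so its value is not read as a ligand level. It is kept in the counts and the figure of the listed pathway rows. dlb, a Delta gene of neural tissue and somites, read 16 and 4.38 FPKM in the kdrl:cxcr1 libraries and 12 and 4.72 in the wild-type ones, and so separated the clutches. By genotype jag1b had the highest fold change (log2 0.60) and DNER the lowest (-0.35), and by clutch DLK2 (1.91) and DNER (-1.63) stood at the ends. DNER and DLK2 were low, averaging 1.14 and 2.86 FPKM. The fringe gene LFNG averaged 23.3 ± 9.63 FPKM, with a log2 fold change of 0.70, opposite in sign to that of mfng. RFNG, the remaining fringe gene, was at -0.02 by genotype and 0.51 by clutch. POGLUT1, which adds glucose to Notch, was the lowest of its group by clutch at -1.76. It read 5.11 and 3.01 FPKM in the kdrl:cxcr1 libraries and 8.24 and 0.229 in the wild-type ones. Its log2 ratio of clutch 2 over clutch 1 was -0.61 in kdrl:cxcr1 and -2.91 in wild-type.

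Of the genes that cleave the receptor, adam10a averaged 70.2 ± 9.7 FPKM, and the gamma-secretase subunit genes PSENEN, APH1B and PSEN2 averaged 55.7, 27.3 and 11.4 FPKM. All 6 tested rows of this group lay below the median row by genotype, from 0.14 for adam10a to -1.08 for PSEN2. Matching capital symbols without an a or b ending as well, a match chosen after seeing the data, put 1 of 8 rows above it. That row, ADAM17 ENSDARG00000093093, read 8.29 and 11.1 FPKM in the kdrl:cxcr1 libraries and 4.86 and 3.61 in the wild-type ones (log2 fold change 1.03). The value for PSEN2 was -0.21 without kdrl:cxcr1 clutch 2 and -1.95 without kdrl:cxcr1 clutch 1. By clutch the ends were APH1B at 0.22 and PSEN2 at -0.81. In the transcription complex, the deacetylase gene HDAC1 averaged 89.1 ± 12.6 FPKM. The corepressor gene SPEN (ENSDARG00000074245) averaged 23.3 FPKM, SNW1 18.5 FPKM, and the Mastermind genes MAML3 and MAML1 12.5 and 11.7 FPKM. That SPEN row was the lowest by genotype (log2 fold change -0.86), while a second SPEN row (ENSDARG00000074332) was at 0.36. By clutch the second SPEN row was the highest (0.76) and HDAC1 the lowest (-0.23).

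MIB1, the ubiquitin ligase that lets ligands be taken up by the sending cell, was nearly level, averaging 33.5 ± 1.12 FPKM. NUMB, EPN2 and dtx2 averaged 13.1, 13.1 and 12.4 FPKM. EPN2, an endocytic adaptor gene, read 20.7 and 18.3 FPKM in the kdrl:cxcr1 libraries and 7.31 and 5.86 in the wild-type ones, a log2 fold change of 1.44. DTX3, of the Deltex ubiquitin ligase family, read 2.8 and 3.13 FPKM against 13.5 and 17 FPKM, a log2 fold change of -2.03. Neither passed over all genes (limma adjusted p = 0.699 for both), although the genotypes did not overlap in either. By clutch NUMB stood highest (0.77) and neurl1ab lowest (-1.27).

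Of the remaining hairy/enhancer-of-split rows, 0 passed limma's test by clutch, with 5 of 16 at an unadjusted p under 0.05 (9.20% of all tested rows). By clutch 12 of 16 tested rows lay below the median row, with a median of -1.25 against -0.06 for all rows. HES6 ENSDARG00000007097, her1, her2, her4.4, her7, her8.2, heyl and HELT were listed at 0 in a clutch 2 library and in no clutch 1 library. They averaged from 0.533 FPKM (her1) to 4.77 FPKM (that HES6 row). her1 and her8.2 were at 0 in both clutch 2 libraries, and her2 in wild-type clutch 2 alone. The others were at 0 in kdrl:cxcr1 clutch 2 alone, and her7 and heyl were highest in wild-type clutch 2. Summed over the 18 rows of this list, the level was 122 and 25.9 FPKM in the kdrl:cxcr1 libraries and 109 and 71 in the wild-type ones. Over the whole table, 43.5% and 42% of rows were listed at 0 in the clutch 2 libraries, against 31.9% in clutch 1. The neural markers had a clutch median of -1.21. The epidermal markers had one of -1.03, with 7 of 9 tested rows below the median row. The part of either in the hairy/enhancer-of-split values was not tested. her4.1 had a clutch difference of -3.56 (limma adjusted p = 0.392), and HES6 (ENSDARG00000019335) averaged 13.6 ± 8.31 FPKM. her15.1 read 12.6 and 0.357 FPKM in clutches 1 and 2 of kdrl:cxcr1, and 9.26 and 3.11 in those of wild-type. her7 was the highest by clutch at 0.63. By genotype the median was -0.55, from her4.3 (1.60) to HELT (-2.03), with 4 rows above the median row and 12 below. The clutches differed in this. her4.4, her4.5, her7, her15.1 and heyl were higher in kdrl:cxcr1 in clutch 1 and lower in clutch 2. For her4.4 the log2 ratios were 2.47 and -0.74, and for her7 0.97 and -2.74. her2 and her4.3 were higher in both clutches, and both HES6 rows, her4.1 and HELT lower in both. HELT was low, at 0.735 and 0 FPKM in the kdrl:cxcr1 libraries and 4.91 and 3.87 in the wild-type ones.

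Adding rows whose symbol in capitals equals a listed name without its a or b ending, a match chosen after seeing the data, raised the tested pathway rows to 60, and again 0 passed limma's test. It brought in NRARP, a feedback inhibitor that is itself a Notch target. The NRARP row ENSDARG00000091419 read 49.4 and 71.9 FPKM in the kdrl:cxcr1 libraries and 26.3 and 16.9 in the wild-type ones, a log2 fold change of 1.46. The NRARP row ENSDARG00000018958 read 13.1 and 15 FPKM against 14.5 and 42.1 FPKM, a log2 fold change of -0.78, which was -0.04 without wild-type clutch 2 and -1.52 without wild-type clutch 1. The genotypes did not overlap in the former and overlapped in the latter (limma adjusted p = 0.699 and 0.760). The RBPJ rows read 5.28 to 20.1 FPKM and 8.56 to 11.1 FPKM over the 4 libraries. The 2 rows of EFNB2, whose product ephrin-B2 marks arteries, read 35.2 to 56.5 and 23.5 to 82.8 FPKM.

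Arterial genes outside the members, of which 12 of 29 listed names matched a symbol, showed no call. Of 11 tested rows 3 lay above the median row by genotype and 8 below, with a median of -0.24. flt1, a VEGF receptor gene, was the highest (0.53), and the sphingosine 1-phosphate receptor gene S1PR1 the lowest (-1.56). In clutches 1 and 2 the log2 ratio was 0.99 and 0.06 for flt1, and -1.66 and -1.45 for S1PR1. By clutch sox18 (1.05) and UNC5B (-0.63) were the ends. Adding the capital symbols without an a or b ending gave 25 tested rows, 7 above the median row by genotype and 18 below. Among those the EFNB2 row ENSDARG00000074050 was the highest by genotype (0.81, SE 0.59, limma adjusted p = 0.755). Its log2 ratio was 0.15 in clutch 1 and 1.48 in clutch 2, and the genotypes overlapped. Its value of 82.8 FPKM was that of kdrl:cxcr1 clutch 2. The EDNRB row ENSDARG00000089334, listed at 0 in both clutch 2 libraries, was the lowest by clutch (-2.58). Venous genes had 3 of 13 above the median row by genotype, from ephb4b (0.56) to lyve1a (-1.39, averaging 3.72 FPKM). By clutch 11 of 13 lay above it, from aplnrb (1.31) to NR2F2 (-1.22). NR2F2, the venous factor known to repress Notch genes, read 91.3 and 30.4 FPKM in the kdrl:cxcr1 libraries and 70.4 and 37.5 in the wild-type ones, high in clutch 1 as hey1 was.

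**Figure D4:**
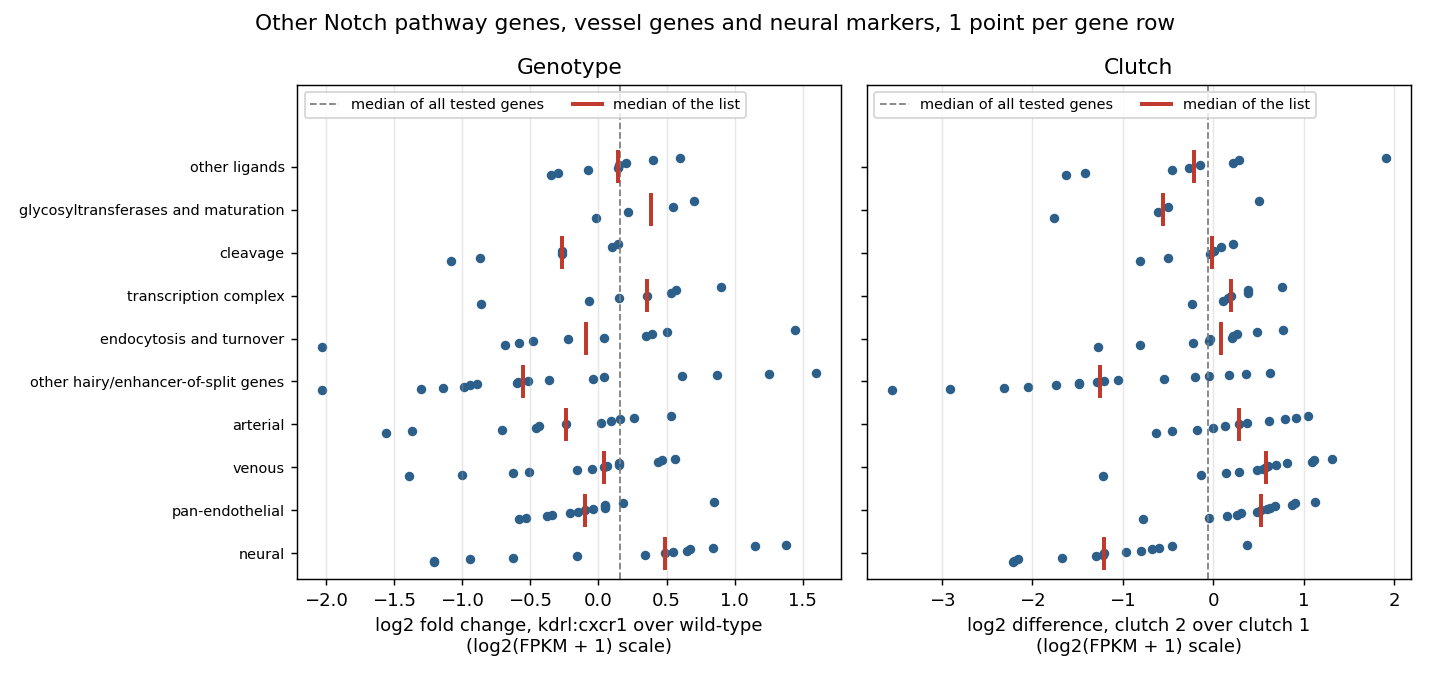
Log2 differences on the log2(FPKM + 1) scale (horizontal) by genotype (left) and clutch (right) for tested rows of each list (vertical), 1 point per row. Red bars are list medians and dashed lines the medians of all tested rows, 0.16 and -0.06. By clutch the hairy/enhancer-of-split (-1.25) and neural (-1.21) medians lie to the left and the venous (0.58) and pan-endothelial (0.53) medians to the right. The epidermal list, with a clutch median of -1.03, is not drawn.

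For the member of highest mean level in the receptor, ligand and target roles (notch3, dll4 and hey1), the most alike rows were sought. The NOTCH1 row ENSDARG00000052094, not counted as a member, averaged 36.1 FPKM against 34.5 FPKM for notch3. Rows were sought among the members and the listed pathway, arterial, venous and pan-endothelial genes, 95 rows in all. Likeness was the root mean square difference of their deviations in log2(FPKM + 1) over the 4 libraries. For dll4 the nearest were the connexin gene gja4 (0.06) and the VEGF receptor gene KDR (0.08), where the median row was at 0.51. KDR read 39.3 and 53 FPKM in the kdrl:cxcr1 libraries and 35.2 and 55.4 in the wild-type ones, higher in clutch 2 than in clutch 1 as dll4 was. For notch3 they were HDAC1 (0.15) and acvrl1 (0.17), and for hey1 acvrl1 (0.23) and jag1a (0.26). With 4 libraries this measure describes the values and carries no test.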

How the data were processed

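The authors deposited FPKM values, 1 column per library, for 31951 Ensembl rows. The submitters' processing notes name Cutadapt, TopHat2 2.0.11, Cufflinks 2.2.1 and build GRCz10. Annotation, read assignment and scaling across libraries: not given in the sources used here. Whole reads could not be recovered from the low values, and a listed 0 may be a failed Cufflinks estimate. Columns were matched to samples by title, and 0 columns were left unmatched. A symbol table named 26120 rows. No sequence or coordinate is given.

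The scale was log2(FPKM + 1), and tests used limma 3.58.1 under R 4.3.3 (moderated test with an intensity trend, two-sided, Benjamini-Hochberg over 17723 rows with at least 1 FPKM in at least 2 libraries, threshold 0.05). Because of the added 1, fold changes of low genes are understated. The fit had 5.69 degrees of freedom, 3.69 of them borrowed across genes. The code was tested on simulated data. Genotype and clutch came from titles. Clutch numbers pair the samples, since each clutch gave 1 library per genotype (correlation of same-clutch deviations 0.116). Members and lists were chosen with earlier results of these data known. All members are named, with pathway rows averaging at least 10 FPKM and the ends of each list, and some genes that this rule names are not reported here. PDGFRB, hbae3, ripply1, ripply2, mespba, dlb, her15.1, EFNB2, RBPJ, NRARP and kdrl were added after their values were seen, as were mespaa, MYOD1, ADAM17, EDNRB and TAGLN. Alternatives were other pseudocounts, filters, scalings and moderation, the clutch block or a genotype term, and leaving out each library.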

Additional observations from a re-analysis of the deposited data

Results flagged for a closer look

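Several values had opposite directions in the groups compared, and with 1 library per genotype and clutch none of these differences could be tested. By genotype, the log2 ratio of kdrl:cxcr1 over wild-type was 0.60 in clutch 1 and -0.10 in clutch 2 for NOTCH1 ENSDARG00000052094 (difference -0.71). It was 0.47 and -2.3 for NOTCH1 ENSDARG00000103554 (difference -2.77). RFNG (-0.37 and 0.33, difference 0.70), adam10a (0.45 and -0.17, difference -0.63) and lyve1a (0.03 and -2.8, difference -2.83) also had opposite signs, and none of the 8 members did. Groups of 2 libraries were too small for a search for single libraries far from the rest.

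By clutch, the log2 ratio of clutch 2 over clutch 1 had opposite signs in the genotypes for 3 members. It was 0.43 in kdrl:cxcr1 and -0.09 in wild-type for notch2 (difference 0.52), -0.78 and 0.14 for dlc (difference -0.92) and -0.42 and 0.48 for mfng (difference -0.90). The same held for NOTCH1 ENSDARG00000103554 (-0.47 and 2.3, difference -2.77), HDAC1 (difference 0.51), PSEN2 (-1.85), her7 (-3.71) and UNC5B (-2.19).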

How the results depend on the processing

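No member passed limma's test under any alternative run. The count of rows past the threshold by genotype, 2, was 0 with a pseudocount of 0.1, without a filter, without the intensity trend, with the clutch as a replicate block and without any 1 library (0 to 0). The count by clutch, 3, was 1 with a pseudocount of 0.1, without a filter and without the trend, and 0 to 15 with 1 library left out: 0 without either clutch 1 library, 11 without kdrl:cxcr1 clutch 2 and 15 without wild-type clutch 2. The block changed no other call. By genotype notch2, notch3, dlc, hey2, her4.2 and mfng kept their direction under each alternative. Fits with 1 library left out held no term for the other factor, so genotype and clutch differences mix in them. With 1 library left out the log2 fold change ranged from -0.13 to 0.52 for dll4 and from -0.83 to 0.15 for hey1. It ranged from -0.13 to 0.63 and from -2.06 to 0.24 for NOTCH1 ENSDARG00000052094 and ENSDARG00000103554, from -0.45 to 0.41 for RFNG, from -0.02 to 0.30 for adam10a and from -1.3 to 0.61 for DNER. Median-of-ratios scaling gave -0.03 for dll4 and -0.09 for adam10a. By clutch the ranges were -0.39 to 0.74 (notch2), -0.83 to 0.19 (dlc), -0.57 to 0.21 (hey2), -0.68 to 0.74 (mfng), -0.24 to 2.06 (NOTCH1 ENSDARG00000103554), -1.81 to 0.19 (PSEN2), -0.74 to 2 (her7) and -1.53 to 0.27 (UNC5B). Scaling to pan-endothelial markers, added after seeing the data, turned the clutch difference of notch2 to -0.33, mfng to -0.48, NOTCH1 ENSDARG00000052094 to -0.10 and APH1B to -0.29, and quantile normalization turned mfng to -0.14. The cause was not tested. Counting error is unknown because FPKM values hold no counts.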
